A study of Homo sapiens with 12 samples.

Results

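The enzymes and binding proteins that write, remove and read 5-methylcytosine in DNA were followed in HGC27, an established human gastric carcinoma cell line, with and without knockdown of FTO. The set held 10 genes grouped by their function, and it was chosen with earlier results of these data known. The genes were the erasers TET1, TET2 and TET3, the writers DNMT1, DNMT3A and DNMT3B, the maintenance factor UHRF1, and the readers MBD1, MBD2 and MBD3. They were looked up by the gene name listed with each peak in the m6A peak lists of both conditions and in the authors' table of differential m6A peaks. Of 39492 control peaks 19 were listed under these genes, and of 28891 knockdown peaks 18. Of 8970 differential peak rows 9 were, under the names TET3, DNMT1, UHRF1, MBD1 and MBD3, though not all of them lie on these genes. Those 5 genes, of 6396 in that table, also had expression values (FPKM, fragments scaled by transcript length and library size) for each input library. A gene entered that table through an m6A difference between the same libraries, so its m6A values are given as a description, and its expression test is not independent of how it was chosen.

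The series asks how FTO, an RNA demethylase, bears on ferroptosis by way of HOXC8, MDM2 and p53. Fragmented poly(A) RNA was sequenced before (input) and after (IP) enrichment with an m6A antibody, with 3 input and 3 IP libraries per condition. The controls carried the genotype label WT and the protocol calls them negative controls, with no control hairpin named. The treated samples carried the label FTO-KO, while their titles (sh1, sh2 and sh3) and the protocol point to a short hairpin knockdown. FTO RNA was still detected in them, at 0.793 ± 0.0335 FPKM against 5.56 ± 0.108 in the controls (SD, n = 3). The labels do not say whether numbered libraries came from separate cultures, whether sh1 to sh3 were different hairpins, or whether a clone or a pool of cells was used. P-values therefore rest on the scatter among these libraries alone, and that scatter could be technical.

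In DNA, DNMT3A and DNMT3B place methyl groups on new CpG sites, and DNMT1 copies the pattern to the daughter strand after replication, guided by UHRF1, which recognises DNA methylated on one strand. TET enzymes oxidise 5-methylcytosine on the way to its removal. They are iron- and 2-oxoglutarate-dependent dioxygenases, as FTO is, but act on DNA. MBD1 and MBD2 bind methylated CpG, while MBD3 is a subunit of the NuRD repressor complex that binds methylated DNA weakly. In messenger RNA, N6-methyladenosine (m6A) is found mostly in long internal exons and around stop codons, in a short sequence context called DRACH. The antibody also binds m6Am, a related mark on the first transcribed adenosine beside the cap, so this assay does not tell these marks apart at the start of a transcript.

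Peaks reached into the first 50 transcribed bases from an annotated start site in 3 of the 10 genes. On UHRF1, whose annotated span begins upstream at 4903080, a knockdown peak at 11.4% of the span covered an internal RefSeq start site at 4909501 and most of the window of another at 4910144 (46 of 50 bases), and no control peak lay there. The control peak of MBD1 covered the first base of its window, while the MBD1 knockdown peak ended inside the transcript, short of it. A weak MBD2 peak in the control list covered the last 20 of these 50 bases. RefSeq start windows (GRCh38.p14) were found for all 10 genes, 21 windows in all, and 4 of them, on MBD1, MBD2 and UHRF1, had bases inside a peak of the same gene. The first 30 transcribed bases of 2 of these are shown, because a peak of at least 1 condition covered all of them. The capital marks the first transcribed base from that start site.
UHRF1, chr19:4909501-4909530, plus strand: Agagcagctggcagcgcggcgggcagcgtt
MBD1, chr18:50281738-50281767, minus strand: Atgcgccagctagatgggcagcgaggagag
The knockdown peak of UHRF1 covered all 50 of the first transcribed bases of that window. On MBD1 the control peak covered 50 and the knockdown peak 27 of the first 50. DRACH was searched on the transcribed strand as A, G or T, then A or G, then AC, then A, C or T, and it had no match in the first 50 bases of any of the 4 windows. Of all 35116 RefSeq windows 49.6% held a match in that stretch, and 6 of the 21 windows of these genes did. Both printed sequences start with A, as did 8 of the 21 windows and 44.4% of all windows. A match or its absence in this window is a description of the letters only.

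Many peaks that lie on these genes were listed under a neighbour. Beside the listed gene, given with its distance to a transcript start, each peak carries the identifier of the gene model it was called on, and these differed in 22.6% of control and 21.7% of knockdown peaks. By gene model, the 10 genes had 31 control and 34 knockdown peaks. All 4 control and 5 knockdown peaks of TET2 were listed under RN7SL89P, and both control peaks of UHRF1 under KDM4B. The single DNMT3B peak of each condition was listed under MAPRE1. In the other direction, 2 peaks per condition listed under DNMT1 were called on S1PR2, 1 control peak listed under MBD1 was called on CXXC1, and 1 peak per condition listed under MBD3 was called on UQCR11. Peaks are described below by gene model, so that each one lies on the model of the gene named. Whether the reads came from that gene's RNA or from an overlapping one was not tested.

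**Figure D1:**
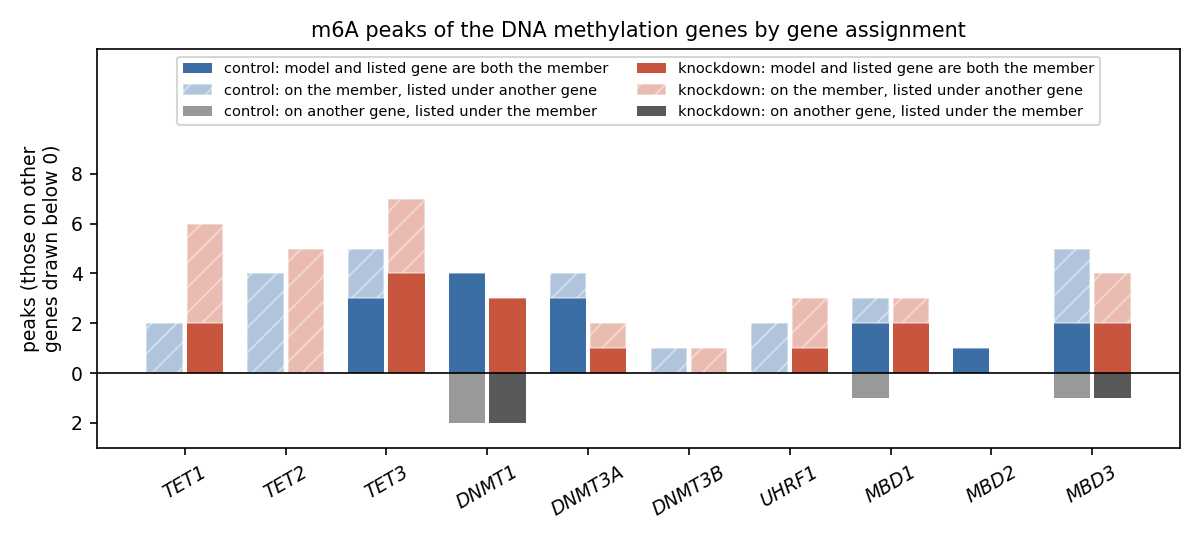
Number of m6A peaks per gene (vertical axis) in the control list (blue) and the FTO knockdown list (red); solid bars are peaks whose gene model and listed gene are both the gene named, hatched bars lie on it but are listed under another gene, and grey bars below 0 are listed under it but were called on another gene. TET2 and DNMT3B have hatched bars only, and DNMT1 is the gene with the most grey, 2 peaks in each list.

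Among the erasers, all 3 TET transcripts carried m6A peaks in both conditions. Enrichment here is IP relative to input as the authors wrote it for each peak. Each condition has 1 list over its replicates, with no value per replicate, so enrichments are set side by side and not tested. The median enrichment of all peaks was 6.11-fold in the control list and 7.05-fold in the knockdown list. Of 26862 overlapping peak pairs over all genes, 53.0% had higher enrichment after knockdown (median ratio 1.04). Of the 34 pairs on these genes 55.9% did (median ratio 1.09). A higher enrichment after knockdown is therefore not read as particular to these genes. TET1 had 2 control peaks, a long one from the 5' UTR onward with 4582 exonic bp (9.46-fold) and one at the 3' UTR (14.5-fold). In the knockdown list 6 shorter peaks lay within the same regions, at 4.53-fold to 13.2-fold, the highest at the 3' UTR (chromosome 10, 68691164 to 68691852). Exonic bases under TET1 peaks summed to 5811 in controls and 2640 after knockdown. TET2 (chromosome 4, 105145875 to 105279803), often mutated in blood cancers, had its peaks in exon 3 and at 3' UTR annotations. They ran from 7.64-fold to 10.4-fold in the 4 control peaks and from 5.24-fold to 7.61-fold in the 5 knockdown peaks, with 4557 and 1532 exonic bp covered. TET1 and TET2 thus had more peaks and fewer exonic bases under them in the knockdown list. So did TET3 (5 and 7 peaks, 4765 and 3569 exonic bp) and UHRF1 (2 and 3 peaks, 1258 and 1168 exonic bp). DNMT1, DNMT3A, MBD2 and MBD3 had fewer peaks in the knockdown list, and DNMT3B and MBD1 had as many. The whole control list held 39492 peaks and the knockdown list 28891. Over all genes the median peak had 330 exonic bp in the control list and 271 in the knockdown list. Neither TET1 nor TET2 had an FPKM value, and their RNA levels were not analysed here.

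TET3 had its highest peak at the 3' UTR in both lists, 14.4-fold in controls (chromosome 2, 74099525 to 74102490) and 28.8-fold after knockdown (74100814 to 74102250). The latter stood at percentile 95.2 of enrichment within the knockdown list, and the former at percentile 86.5 of the control list. These 3' UTR peaks were not among the differential rows. The control one, with 2186 exonic bp, also overlapped a 1.37-fold knockdown peak of 151 exonic bp. A peak in exon 1 of 11 (73986404 to 73993388, 480 exonic bp) had the same borders in both lists, at 7.13-fold and 11.0-fold. In the authors' deposited table this exon 1 peak was higher after knockdown, by 0.80 on the log2 scale (p = 1e-12). A 3' UTR peak of TET3 listed under FNBP1P1 was 0.34 higher in the authors' deposited table (p = 1.66e-05). TET3 is the eraser with both m6A and expression values.

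DNMT1, the maintenance methyltransferase (chromosome 19, 10133346 to 10194953, minus strand), had 4 control and 3 knockdown peaks, and the highest were 7.13-fold in controls and 12.6-fold after knockdown. The 7.13-fold peak covered 61 bp, was weak (log10 adjusted p of -3.51) and overlapped no knockdown peak. The 12.6-fold knockdown peak lay at another site (10160358 to 10175603). It overlapped 2 control peaks, the higher of them at 4.79-fold. Most DNMT1 peaks are annotated as 3' UTR but lie inside the gene, between 40.3% and 89.2% of its genomic span from the 5' end, and the transcripts named with them are retained-intron or nonsense-mediated decay forms. By the authors' deposited table, 3 differential peaks on DNMT1 were higher after knockdown, by 1.06 (10140727 to 10141191), 0.71 (10151402 to 10154439) and 0.28 (10160358 to 10179908) on the log2 scale. The p-values given there were 1.58e-55, 7.94e-75 and 6.17e-06. The region of the largest difference held no peak in either condition's own list. One more row of the authors' deposited table listed under DNMT1 lies on S1PR2 and was 0.19 higher. Its p of 0.00479 was the largest of those listed under the chosen genes, and the table's usable rows reach 0.049. Rows just outside that limit were not analysed here.

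Of the de novo methyltransferases, DNMT3A had peaks near the middle of the range of enrichment and below it, and DNMT3B had 1 low peak per list. DNMT3A (chromosome 2, 25227874 to 25342590) had 4 control peaks, the highest at 5.75-fold at the 3' UTR (percentile 48.3), and 2 knockdown peaks, at 5.10-fold there and 3.67-fold in an exon 3 region listed under MIR1301. The 2 DNMT3A control peaks with no overlapping knockdown peak were each 61 bp long, at 1.46-fold and 1.61-fold. DNMT3B (chromosome 20, 32762385 to 32809356) had 1 peak per list, at 1.65-fold and 1.92-fold, which stood at percentiles 4.42 and 4.14 of enrichment. No differential row was listed for either gene.

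UHRF1 was marked most strongly at its 3' UTR, at 18.5-fold in controls (chromosome 19, 4960988 to 4962034) and 25.4-fold after knockdown (4961227 to 4961825). These peaks stood at percentiles 92.7 and 93.6 of their lists and were not among the differential rows. A weaker peak, in exon 13 of 17 in the control list and beginning in exon 12 in the knockdown list, was at 1.78-fold in controls and 3.55-fold after knockdown. The 5' UTR peak over the internal start sites (4909492 to 4910191, 210 exonic bp, 3.85-fold) was in the knockdown list alone. In the authors' deposited table the 5' UTR peak and the internal exon peak were higher after knockdown by 0.93 (p = 3.09e-06) and 0.94 (p = 5.01e-32) on the log2 scale. Neither difference lay at the most enriched site of UHRF1.

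Of the readers, MBD3 had the highest enrichment of all 10 genes. A peak of 181 exonic bp annotated as 5' UTR (chromosome 19, 1585362 to 1585916), at 37.5% of the gene's span, stood at 34.9-fold in controls and 54.0-fold after knockdown, percentile 98.9 of each list. A second 5' UTR peak (1592167 to 1592347) stood at 25.2-fold and 34.8-fold. Neither of these 5' UTR peaks was among the differential rows. The long 3' peak of MBD3, listed under AC005943, was at 14.1-fold in controls and 26.9-fold after knockdown. Its edge towards the 5' end gave the largest m6A difference among the rows of these genes in the authors' deposited table, 1.68 higher after knockdown (1578339 to 1578516, p = 1.58e-96). That stretch reached into the knockdown peak and lay beside the 14.1-fold control peak. The same knockdown peak also overlapped a control peak at 1.74-fold (1576082 to 1576322). MBD1 (chromosome 18, 50266885 to 50281767, minus strand) had its highest peak at the 5' UTR, 14.3-fold in controls and 22.9-fold after knockdown, and by the authors' deposited table this peak was 0.52 higher (p = 0.00112). The other row listed under MBD1 in the authors' deposited table lies on CXXC1 and stood at -0.37 on the log2 scale (p = 0.00115). CXXC1 encodes a reader of unmethylated CpG and lies next to MBD1. At 3' UTR annotations MBD1 also had a peak at 9.94-fold in controls and 8.33-fold after knockdown. Another there was at 3.01-fold and 3.36-fold. MBD2 had a single control peak at the 5' UTR (6.11-fold, log10 adjusted p of -0.785) and none after knockdown, and it had no FPKM value.

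**Figure D2:**
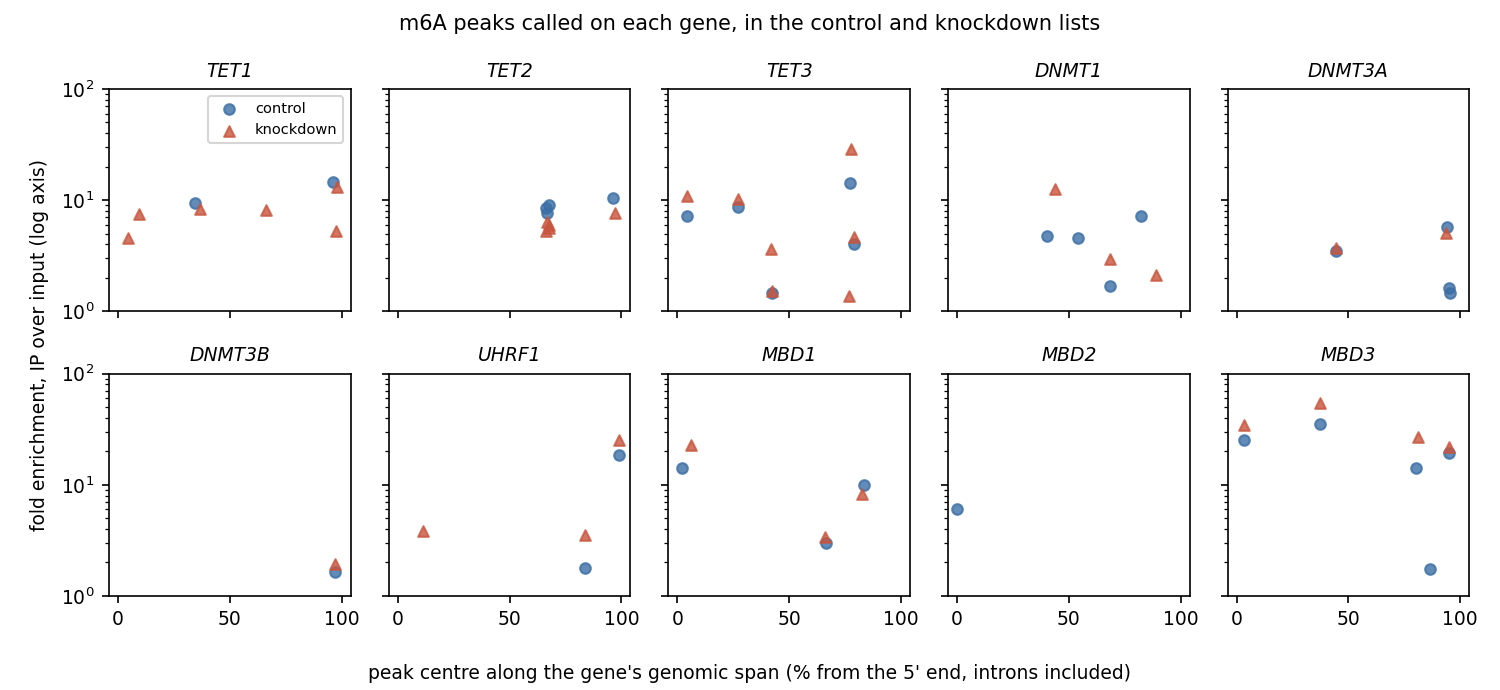
Fold enrichment of IP over input (vertical log axis, the authors' values) of every peak called on each gene, placed by its centre along the gene's genomic span from the 5' end (horizontal axis, percent, introns included); circles are the control list and triangles the knockdown list. MBD3 reaches 54.0-fold, UHRF1 peaks highest at its 3' end, and DNMT3B stays at 1.65-fold and 1.92-fold.

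Taken by the gene model of overlapping peaks, 9 differential rows with a usable p lay on these genes in the authors' deposited table, all 9 higher after knockdown. The DNMT1 row at 10140727 to 10141191 overlapped no peak of either list and was placed by the gene's span. By the listed gene name the count was 8 higher and 1 lower, the lower one being the CXXC1 row. Over all 8687 rows with a usable p in the authors' deposited table, 55.4% were higher after knockdown, and the rule for choosing these genes used this same contrast, so nothing is read from the count. One further row by gene model, not in these counts, lies in exon 3 of TET2 (chromosome 4, 105235189 to 105235638, -0.30 on the log2 scale in the authors' deposited table). It is 1 of 283 rows with no gene name, no FPKM and an impossible p above 1, so no p is given for it.

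**Figure D3:**
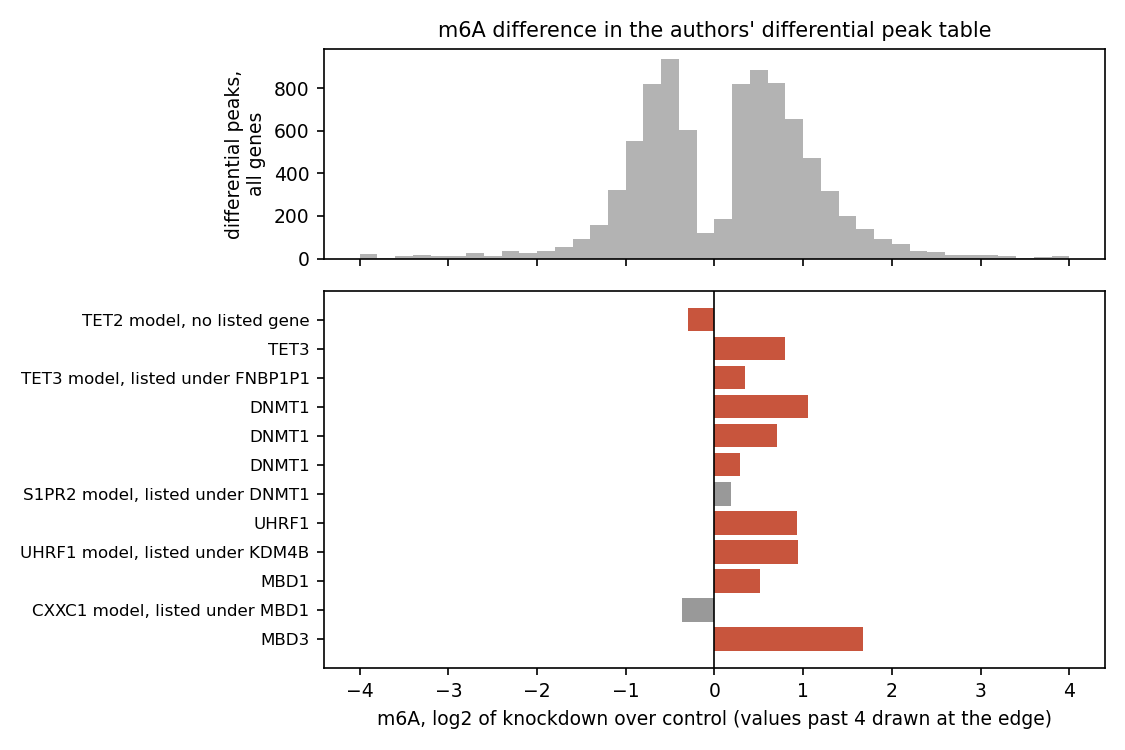
Upper panel, number of differential m6A peaks of all genes by the log2 of knockdown over control (horizontal axis, the authors' values turned to knockdown over control). Lower panel, the same value for each row on or listed under the DNA methylation genes. Red marks rows that lie on the gene, and grey marks rows that lie on S1PR2 or CXXC1. MBD3 extends to 1.68, and the TET2 row and the CXXC1 row lie below 0.

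RNA of all 5 genes with expression values was higher after FTO knockdown. As ratios of mean FPKM, the changes ran from TET3, 1.97-fold, through UHRF1, 1.60-fold, and MBD3, 1.46-fold, to DNMT1, 1.21-fold, and MBD1, 1.19-fold. The test was limma on log2(FPKM + 1) with Benjamini-Hochberg adjustment over 4515 genes whose mean reached 1 FPKM, and fold changes on that scale understate those of low genes. Of these genes 62.4% passed an adjusted p of 0.05, with 24.5% higher and 37.9% lower, and groups did not overlap in 67.8%. The 5 genes were all called higher against that 24.5%, and their median change of 0.52 on the log2 scale stood beside -0.07 for all tested genes. The split of 1107 higher and 1712 lower calls moved to 1425 and 1291 with quantile normalization (31.6% higher) and to 1507 and 1213 with median-centring (33.4% higher), and all 5 were again called higher. Nothing further is read from the count, since the genes were listed through the same contrast. In bulk RNA, a change in the mix of cells and a change of RNA per cell cannot be told apart.

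The control libraries gave TET3 levels of 7.64, 8.30 and 7.84 FPKM, and the knockdown libraries gave 16.2, 15.1 and 15.6 FPKM. Every knockdown library lay above every control. The log2 difference by limma was 0.90 (SE 0.0459, with an adjusted p of 9.70e-06), at percentile 99.7 of all tested changes. Among the 3 genes whose levels followed TET3 most closely over the 6 input libraries were ITPKB, an inositol phosphate kinase, and CREBBP, a histone acetyltransferase, with Pearson r of 0.999 and 0.998. These describe 6 libraries in 2 conditions, with no reading of shared function or control. CREBBP went from 9.64 ± 0.349 to 13.6 ± 0.133 FPKM (SD, n = 3).

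UHRF1 RNA was 14.9, 15.5 and 13.4 FPKM in the controls and 22.7, 23.9 and 23.5 FPKM after knockdown. The groups were well apart, with the third control the lowest library. By limma the log2 change was 0.65 (SE 0.056, with an adjusted p of 5.84e-05). DNMT1, with which UHRF1 works at the replication fork, had the highest level of the 5 genes, with 32.2, 33.2 and 31.7 FPKM in control libraries and 39.8, 38.7 and 39.2 FPKM in knockdown ones. The conditions did not overlap. The smaller shift of DNMT1 was 0.27 as a log2 change (limma, SE 0.0368, with an adjusted p of 0.000475).

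For MBD3 the 3 controls read 12.5, 12.6 and 15.2 FPKM, and the 3 knockdown libraries read 20.4, 18.1 and 20.1 FPKM. The third control was the highest of its group but still below every knockdown library. Limma gave a log2 change of 0.52 (SE 0.0792, with an adjusted p of 0.000852). For MBD1 the controls read 10.07, 10.02 and 10.45 FPKM and the knockdown libraries 12.49, 11.87 and 11.96 FPKM, close but without overlap. Its log2 change was 0.23 (limma, SE 0.0404, with an adjusted p of 0.00167). In the controls the order of mean levels was DNMT1, UHRF1, MBD3, MBD1 and TET3, with UHRF1 and MBD3 overlapping. After knockdown TET3 had passed MBD1, at means of 15.6 ± 0.523 and 12.1 ± 0.335 FPKM (SD, n = 3).

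**Figure D4:**
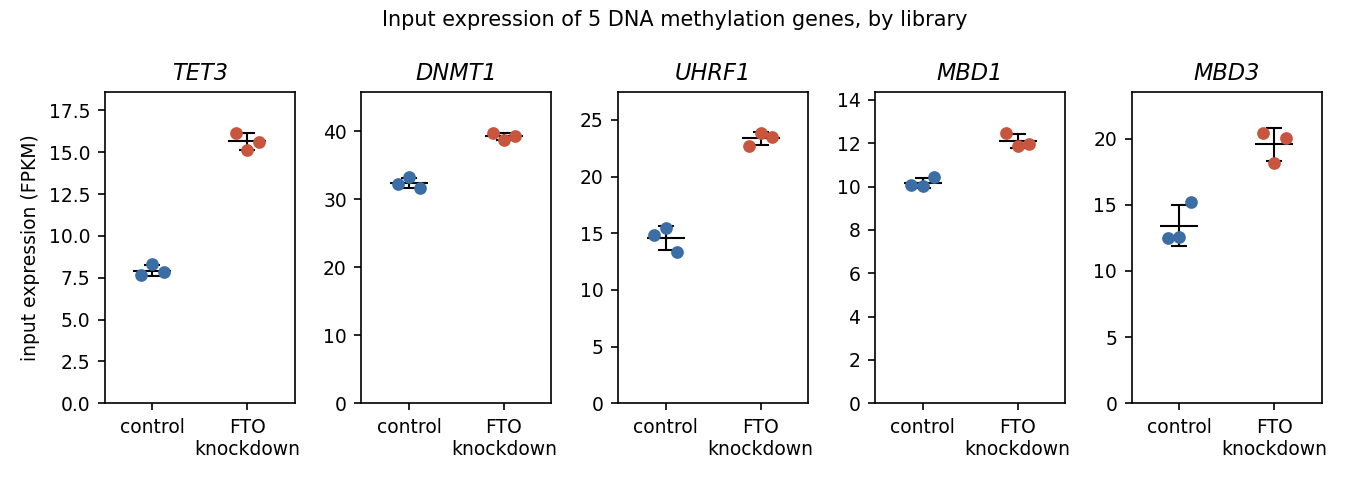
Input expression (vertical axis, FPKM from 0) of each of the 5 genes in the 3 control (blue) and 3 FTO knockdown (red) libraries, with black bars for the mean and SD. In every panel the knockdown libraries lie above the controls, with TET3 at means of 7.93 and 15.6 FPKM and UHRF1 at 14.6 and 23.4 FPKM.

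Partners of these genes were taken from lists of their complexes and pathways. Of 32 further DNA methylation partners and readers, 8 had expression values, and 7 of these rose and none fell, also after quantile normalization or median-centring. Over all tested genes the share called higher was 24.5%, and 31.6% and 33.4% with these scalings. MBD6, a relative of the MBD readers, rose from 7.55 ± 0.317 to 12.1 ± 0.617 FPKM (SD over 3 libraries each; adjusted p by limma 4.84e-05). DCAF1, a ubiquitin ligase subunit that modifies TET enzymes, rose from 6.33 ± 0.277 to 9.23 ± 0.43 FPKM (adjusted p by limma 0.000122). ZBTB4, a zinc finger reader of methylated DNA, KDM2A, which binds unmethylated CpG, TRIM28, CTCF and SETDB1 also rose. KDM2B, at control and knockdown means of 2.98 and 2.64 FPKM, missed the threshold (adjusted p by limma 0.056). The median change of the list was 0.33 on the log2 scale.

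NuRD, the remodelling and deacetylase complex that holds MBD2 or MBD3, had 9 of 13 subunit genes measured, of which 6 rose and 1 fell, beside 24.5% higher and 37.9% lower over all tested genes. Median-centring gave 7 and 1. The histone-binding subunit gene RBBP4 rose from 14.9 ± 0.332 to 21 ± 0.58 FPKM, and the remodeller gene CHD3 from 12.9 ± 0.102 to 16.3 ± 0.217 FPKM (adjusted p by limma 5.31e-05 and 0.000182). The deacetylases moved apart. HDAC1 rose from 14.6 ± 0.825 to 20.2 ± 0.875 FPKM and HDAC2 fell from 3.98 ± 0.435 to 2.86 ± 0.278 FPKM (adjusted p by limma 0.000249 and 0.00466). CHD4, the main remodeller, was at 41.2 FPKM and then 43.3 FPKM (adjusted p by limma 0.171).

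Genes of methyl donor and 2-oxoglutarate metabolism moved the other way. Of 20 listed, 7 were measured, and 5 fell and none rose, beside 37.9% lower over all tested genes. After median-centring 4 fell. IDH2, the mitochondrial enzyme that makes 2-oxoglutarate, the co-substrate of TET enzymes, fell from 41.6 ± 1.51 to 24.5 ± 0.615 FPKM, a log2 change of -0.74 (adjusted p by limma 1.28e-05). AHCYL1, a relative of the enzyme that clears S-adenosylhomocysteine, fell from 37.5 ± 2.17 to 24.3 ± 1.09 FPKM (adjusted p by limma 6.57e-05). Methionine synthase (MTR) fell from 6.90 to 3.92 FPKM, and the serine hydroxymethyltransferases SHMT2 and SHMT1 fell from 131 to 95.3 FPKM and from 5.86 to 4.86 FPKM (adjusted p by limma 0.000232, 0.000421 and 0.00457). AHCY itself was at 79.2 FPKM and then 81.1 FPKM, not past the threshold (adjusted p by limma 0.579). The median change of this list was -0.45 on the log2 scale. Base excision repair removes the oxidised bases that TET enzymes make. Of the base excision repair genes that act after TET oxidation, 2 of 11 were measured: LIG3 fell from 5.75 to 4.63 FPKM and PARP1 rose from 30.7 to 35.3 FPKM (adjusted p by limma 0.00108 and 0.00576).

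Genes often silenced by DNA methylation changed in both directions. Of 28 listed, 10 were measured, with 2 higher and 3 lower, beside 24.5% and 37.9% of all tested genes, and a median log2 change of 0.10. Quantile normalization gave 2 and 2, and median-centring 5 and 2. The tumour suppressor gene CDKN2A fell from 24.4 ± 0.987 to 18.3 ± 0.797 FPKM and the imprinted PEG10 from 50.1 ± 4.3 to 38.2 ± 0.997 FPKM (adjusted p by limma 0.000257 and 0.00129). The imprinted RNA H19 fell from 1.46 to 0.988 FPKM and the tumour suppressor gene RASSF1 rose from 1.60 to 2.03 FPKM (adjusted p by limma 0.0379 and 0.0259). MAGEA6, a cancer-germline gene, rose from 46.9 to 55.2 FPKM (adjusted p by limma 0.00464), but it has near-identical relatives and its level is uncertain. DNA methylation itself was not measured.

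S phase genes, a background for DNMT1 and UHRF1, which act at replication, were mixed. Of 6 measured, GINS2 rose from 8.65 to 12.96 FPKM, MCM7 from 85.5 to 118.1 FPKM and MCM4 from 27.1 to 32.5 FPKM, while CHAF1B fell from 4.69 to 2.997 FPKM and MCM3 from 46.0 to 40.8 FPKM (adjusted p by limma from 7.53e-05 to 0.0104). Median-centring gave 3 higher and 1 lower, and over all tested genes the main shares were 24.5% higher and 37.9% lower. The part of replication activity in the DNMT1 and UHRF1 values was not tested. Of 12 measured m6A machinery genes, 1 rose and 6 fell, FTO itself and HNRNPC, a nuclear RNA-binding protein (67.3 to 55.4 FPKM), with the smallest p. FTO was the target of the knockdown, so its fall came with the design and is no finding about this list. Over all tested genes 24.5% were higher and 37.9% lower. Quantile normalization gave 1 higher and 4 lower, and median-centring 2 and 3.

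Of 12 gastric epithelial and HGC27 identity markers only MUC1 had a value, 1.24 FPKM in controls and 1.43 FPKM after knockdown (adjusted p by limma 0.196), called higher with quantile normalization or median-centring. The labelled cell type could therefore not be checked by expression. Of 10 fibroblast markers COL1A1 fell from 169 to 147 FPKM and THY1 rose from 12.5 to 15.0 FPKM (adjusted p by limma 0.0108 and 0.00318), the former not called with median-centring. Their summed level was 177.0 to 188.5 FPKM in controls and 152.9 to 169.6 FPKM after knockdown, against 77.3 to 79.6 FPKM and 107.7 to 111.6 FPKM for the 5 DNA methylation genes. None of 10 immune markers had a value, and no marker with a value was at 0. The part of other cell types in these results was not tested. FPKM summed over the 6396 genes came to between 74289 and 78461 in controls and between 83712 and 86902 after knockdown.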

How the data were processed

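HGC27 input and IP libraries were grouped by title. The mouse build mm8 stands in the tool and build list per the submitters' processing notes, beside StringTie 1.3.0, HISAT2 2.0 and Bowtie 0.12.2, with no roles. Gene identifiers were human, and 95.9% of 15109 genes matched by symbol to RefSeq GRCh38.p14 had their first control peak over that gene's span, so positions are read as GRCh38. Listed starts were counted from 0 and are given from 1. The peak caller is not given in the sources used here.

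Per the file headers, the authors deposited FPKM per input library, a log2 fold change, p-value and score (log10 of the adjusted p) per differential peak, and a fold enrichment ratio with scores (log10 p and log10 adjusted p) per peak. The table's p and q-values of expression were deposited by the authors and not used. In the differential p column, values above 1 stood in 283 rows, which were left out of counts. Deposited log2 values were control over knockdown: the FPKM ones recomputed to within 1.46e-13, and the m6A ones had a rho of -0.859 with log2 of knockdown over control enrichment over 3759 rows. They were turned to knockdown over control.

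FPKM were tested as log2(FPKM + 1) with limma 3.58.1 in R 4.3.3 (trend, no block, two-sided, threshold 0.05, mean of at least 1 FPKM), after a check on simulated data. Few genes were changed in that simulation, while 62.4% of tested genes were called here, so it does not vouch for these calls. Depth is unknown: FPKM showed no read steps (smallest value above 0, 7.49e-07). Peaks of one gene model were compared on exonic blocks with bedtools 2.31.1. Titles share replicate numbers, but same-numbered libraries did not deviate together. The genes and lists were chosen with earlier results of these data known. Named were all 10 genes, their differential rows and highest peaks, and per list the 2 genes with the smallest p; further list genes are examples. One of the genes that the rule names is not reported here.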

Additional observations from a re-analysis of the deposited data

How the results depend on the processing

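Each of the 5 expression changes kept its direction and its call (limma, adjusted p under 0.05) in all 13 alternatives: pseudocount 0.1, no filter, a mean of at least 5 FPKM, quantile normalization, median-centring, no trend, the replicate block, and each library left out. Over these the log2 change ran from 0.88 to 0.99 for TET3, 0.59 to 0.74 for UHRF1, 0.47 to 0.61 for MBD3, 0.24 to 0.36 for DNMT1 and 0.21 to 0.32 for MBD1, and the highest adjusted p was 0.00885. The replicate block gave 2747 called genes against 2819 and kept all 5, with adjusted p up to 0.00579; leaving out 1 library gave between 2408 and 3018. Deviations of same-numbered libraries correlated at -0.0769, 0.0278 and 0.0247, so no shared deviation was seen. These values cannot tell whether same-numbered libraries were handled together. At a mean of at least 5 FPKM fewer genes were tested and 1603 were called, 773 of them lower.

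Peak counts depended on the rule. Of peaks listed under the 10 genes, 12 of 19 in the control list and 11 of 18 in the knockdown list had at least 4-fold enrichment. Assigning peaks by gene model, chosen after seeing the data, gave 31 and 34. Of the listed peaks 73.7% of control and 88.9% of knockdown ones overlapped the other list by at least 1 bp, against 57.6% and 88.7% of all peaks, and by gene model 87.1% and 94.1%. At a reciprocal overlap of 50% these became 68.4% and 72.2% of listed peaks, 39.2% and 53.6% of all peaks, and 64.5% and 58.8% by gene model. Among listed peaks of at least 4-fold enrichment, 83.3% of control and 100.0% of knockdown ones overlapped such a peak of the other list. The share over all peaks was not computed at that limit. Without read depth, whether a peak missing from a list was absent or too shallow to call was not tested.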
